A study of Mus musculus with 21 samples.

Results

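The proteasome subunit and regulator genes comprised 49 mouse genes, fixed as a list of gene symbols and not by any measured value. They were followed through every PSME3 and H3K4me3 peak list from C2C12 cells, among 21900 protein-coding genes of the GRCm38.p6 gene table. A gene was said to hold a peak when at least 1 bp of the peak lay within 1 kb of the gene span. All 49 symbols were found in the table. By role they were 7 alpha and 7 beta subunits of the 20S core, 3 beta subunits of the immunoproteasome, 6 ATPases and 12 non-ATPase subunits of the 19S regulatory particle, 3 assembly chaperones of the 19S and 5 of the 20S, 4 activators, 1 inhibitor and Psme3ip1, which encodes a protein that binds PSME3.

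The 20S core is a barrel of stacked rings in which the beta subunits cut peptide bonds and the alpha subunits gate the entry. The 19S cap recognises ubiquitinated proteins, removes the ubiquitin and unfolds them with its ATPase ring. Other caps can take its place. PSME1 and PSME2 together form the cytoplasmic PA28 cap, PSME3 forms a nuclear cap of its own that works without ubiquitin, and PSME4 is a single-chain activator. In the immunoproteasome 3 interferon-inducible subunits replace the catalytic subunits of the standard core. PSME3 is therefore both the protein targeted by the antibody and the product of a member gene. H3K4me3, trimethylated lysine of histone H3, marks active promoters.

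C2C12 is an established mouse myoblast line that forms muscle cells when serum is withdrawn. CUT&RUN releases the DNA around an antibody-bound protein for sequencing, and the authors called peaks on it with MACS2. Cycling cells were kept in DMEM with 20% FBS and stored frozen, without fixation, in 10% DMSO, and gave 3 replicates for PSME3 and 3 for H3K4me3. Day 2 cells had been confluent and then spent 48 h in 2% horse serum. They were either fresh or frozen and either native or crosslinked for 5 min with 0.1% formaldehyde, with 1 library of each antibody in each of these 4 preparations. Every group was the same parental line with no transgene or depletion, and the day 2 frozen native preparation alone was handled like the cycling cells. The labels do not say whether replicates came from separate cultures, whereas the paper calls them biological.

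The PSME3 lists held 5812 peaks when the cycling replicates were pooled by the authors, 776 to 3070 in the single cycling replicates and 18 to 186 in the day 2 preparations. The H3K4me3 lists held 14372 to 40999 peaks. No read numbers were given, so the depth is unknown and its part in the lengths of these lists was not tested. Fold enrichment over the MACS2 background was compared only within a list. The labelled cell type was checked by H3K4me3 at fixed marker genes. All 5 myoblast markers (Myod1, Myf5, Des, Cdh15 and Pax7) held a peak in every cycling replicate and every day 2 list. All 7 markers of differentiated muscle held one in every day 2 list, against 0 to 2 in a cycling replicate. In the pooled cycling list 3 did, Ckm, Mymk and Mymx, with fold enrichments of 2.28, 2.57 and 14.7. Of 8 markers of other cell types only Neurod1 and Pou5f1 held a peak. Pou5f1 had it in 1 cycling replicate, and Neurod1 in 1 cycling replicate, the pooled list and the frozen native day 2 list.

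The promoters of the members on which the PSME3 results turn are printed from RefSeq on GRCm38.p6, whose primary chromosomes are those of mm10. A window runs from 250 bases before to 50 bases after a listed transcription start, 5′ to 3′ on the strand of the gene. Of the 49 members, 42 had a listed start, and these had 46 windows. The first 5 are from members with a PSME3 peak over the window in at least 1 cycling replicate (Adrm1 also had one, over 218 bases in replicate 3, and is not printed), and Psme4 is shown as an activator gene without any. Capitals mark 6 fixed motifs searched on both strands, namely TGACNNNGC (antioxidant response element core, bound by NFE2L1 and NFE2L2), CCAAT (NF-Y), CACGTG (E box), CCGGAAG (ETS), GGGCGG (GC box) and TATAAA (the box of that name). In Psme4 the letters of the GC box run into those of the ETS motif.
Psme2, chr14:55591052-55591351, minus strand: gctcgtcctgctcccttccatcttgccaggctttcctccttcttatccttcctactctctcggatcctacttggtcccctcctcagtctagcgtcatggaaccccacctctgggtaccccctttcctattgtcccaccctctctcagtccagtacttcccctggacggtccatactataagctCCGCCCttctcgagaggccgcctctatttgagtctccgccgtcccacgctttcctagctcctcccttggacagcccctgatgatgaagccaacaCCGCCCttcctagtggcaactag
Psme3ip1, chr8:94601677-94601976, minus strand: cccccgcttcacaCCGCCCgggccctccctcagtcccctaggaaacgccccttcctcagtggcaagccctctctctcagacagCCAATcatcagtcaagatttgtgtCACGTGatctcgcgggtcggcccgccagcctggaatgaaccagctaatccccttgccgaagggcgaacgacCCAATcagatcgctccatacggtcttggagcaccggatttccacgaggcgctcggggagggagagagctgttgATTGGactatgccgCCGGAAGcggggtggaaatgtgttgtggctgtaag
Psme3, chr11:101315963-101316262, plus strand: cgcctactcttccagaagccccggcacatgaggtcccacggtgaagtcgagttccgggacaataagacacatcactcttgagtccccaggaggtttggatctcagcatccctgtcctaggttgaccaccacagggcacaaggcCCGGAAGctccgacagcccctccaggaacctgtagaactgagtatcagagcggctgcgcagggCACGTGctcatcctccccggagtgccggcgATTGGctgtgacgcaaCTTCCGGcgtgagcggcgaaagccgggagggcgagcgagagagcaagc
Psmd11, chr11:80428365-80428664, plus strand: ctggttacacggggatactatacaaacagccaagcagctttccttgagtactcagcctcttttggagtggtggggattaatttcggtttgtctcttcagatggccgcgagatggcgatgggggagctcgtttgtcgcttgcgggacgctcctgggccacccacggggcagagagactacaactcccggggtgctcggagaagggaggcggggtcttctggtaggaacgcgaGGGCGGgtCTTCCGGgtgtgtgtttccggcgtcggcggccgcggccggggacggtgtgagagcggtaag
Psmd13, chr7:140882144-140882443, plus strand: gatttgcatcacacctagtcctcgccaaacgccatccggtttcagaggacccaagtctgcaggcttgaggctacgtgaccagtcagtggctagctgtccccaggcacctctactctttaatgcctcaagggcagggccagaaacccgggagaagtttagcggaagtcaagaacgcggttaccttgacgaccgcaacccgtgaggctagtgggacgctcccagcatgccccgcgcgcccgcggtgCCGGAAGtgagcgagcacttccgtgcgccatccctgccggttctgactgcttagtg
Psme4, chr11:30771525-30771824, plus strand: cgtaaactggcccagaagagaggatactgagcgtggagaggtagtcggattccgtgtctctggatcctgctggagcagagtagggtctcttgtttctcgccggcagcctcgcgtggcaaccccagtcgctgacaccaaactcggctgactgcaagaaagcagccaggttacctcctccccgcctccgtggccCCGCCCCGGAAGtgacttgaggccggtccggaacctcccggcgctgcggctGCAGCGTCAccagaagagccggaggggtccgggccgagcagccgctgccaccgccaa

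PSME3 peaks were present at a minority of proteasome genes in cycling myoblasts and at none on day 2. In the pooled cycling list 11 of the 49 members held a PSME3 peak, or 22.4% (95% interval 11.8 to 36.6%, Clopper-Pearson, for counting error alone). The share among all protein-coding genes was 21.9%, so the count was close to the background. All members also held a pooled H3K4me3 peak, so genes with that mark are the nearer background. There, 35.6% of protein-coding genes held a PSME3 peak, and 34.7% of those no longer than Psme4, the longest member. The 22.4% of the members lay below both values, and both lay inside the members' interval.

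The same held over promoters alone. A pooled PSME3 peak overlapped a promoter window in 8 of 42 members with a listed start, against 15.5% of all protein-coding genes with a window and 28.0% of those with H3K4me3 on it.

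The single replicates differed widely. Replicate 1 listed a PSME3 peak at 0 of 49 members (Clopper-Pearson upper bound 7.25%), whereas 4.56% of all protein-coding genes held one. Replicate 2 listed 2 members against a background of 3.60%, and replicate 3 listed 9 against 13.4%. The mean over replicates was 3.67 ± 4.73 members (SD, n = 3), or 7.48% ± 9.64 against 7.19% ± 5.41 of all protein-coding genes. All 9 members seen in any replicate were seen in replicate 3, the longest of the 3 lists, and the part of depth in this was not tested. At least 1 replicate list covered 9 members (background 16.1%), at least 2 lists covered 2 members (4.27%), and all 3 lists covered 0 (1.19%). The 2 members were Psme2 and Psme3ip1, and both rest on replicates 2 and 3, so that 0 remain without either.

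**Figure D1:**
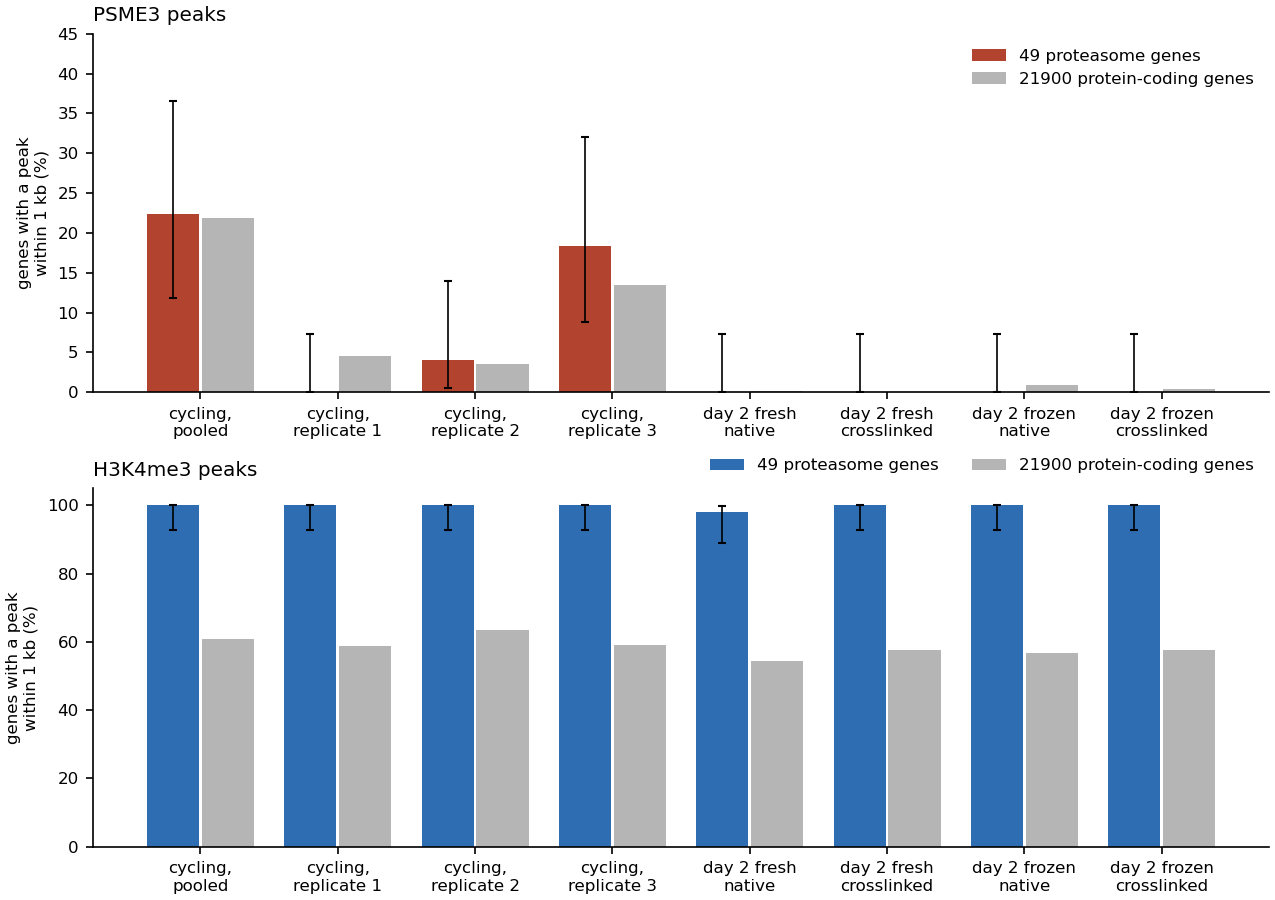
Percent of the 49 proteasome genes and of the 21900 protein-coding genes with a peak within 1 kb, for each PSME3 list (top) and H3K4me3 list (bottom). Error bars are exact 95% intervals for the members (counting error only). PSME3 reached 22.4% of members in the pooled list and 0 in every day 2 list, while H3K4me3 was at 48 or 49 of 49 members throughout.

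The pooled and replicate lists did not name the same members. Of the 49, 4 were in the pooled list and in a replicate (Psmd11, Psmd13, Psme2 and Psme3ip1), 7 in the pooled list alone (Psma6, Psmc3, Psmc6, Psmd3, Psmd4, Psmd8 and Psmg4), 5 in replicate 3 alone (Psma3, Psma7, Psme3, Psmg2 and Adrm1) and 33 in none. PSME3 was thus listed at 16 members in at least 1 list, beside 24.1% of all protein-coding genes and 39.1% of marked ones. Of all protein-coding genes, 13.9% were in the pooled list and a replicate, 8.02% in the pooled list alone and 2.20% in a replicate alone, and of marked ones 22.8%, 12.9% and 3.43%. Over all peaks of each list, the pooled PSME3 list overlapped 75.6, 90.7 and 85.4% of the peaks of replicates 1, 2 and 3, which in turn overlapped 15.4, 12.1 and 45.04% of its own peaks. The peak names in the pooled lists begin with the same label as those of replicate 1, and their description as an aggregate of the 3 replicates is the authors'.

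By role, pooled PSME3 peaks were at 7 of the 18 genes of 19S subunits, or 38.9%, beside the 21.9% of all protein-coding genes and the 35.6% of marked ones. Of these 7, 5 were in no replicate list, and neither member with PSME3 in 2 replicates is among them. The peaks were at 5 of the 12 non-ATPase subunit genes (Psmd3, Psmd4, Psmd8, Psmd11 and Psmd13) and at 2 of the 6 ATPase genes (Psmc3 and Psmc6). In the 20S core they were at 1 of 7 alpha genes (Psma6), at 0 of 7 beta genes and at 0 of 3 immunoproteasome genes. Among chaperone genes there were peaks at Psmg4 alone of the 5 for the 20S and at 0 of the 3 for the 19S. Psme2 was the 1 of 4 activator genes with a pooled peak, the inhibitor gene Psmf1 had none, and Psme3ip1 had one. The groups are small, and no difference between roles was tested.

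Psme2 (chr14:55587440-55591101), which encodes the beta chain of PA28, held the strongest PSME3 peak of the members in the pooled list and in replicate 3. Fold enrichment was 3.67 in the pooled list (chr14:55591046-55591816, q = 5.4e-07), which is the 92.3rd percentile of that list, and 3.83 and 4.42 in replicates 2 and 3, the 20.0th and 90.5th percentiles of those lists, with no peak in replicate 1. Psme2 has 2 listed starts, and distances are to the one nearer to the peaks, whose window is printed. All 3 peaks ended within 55 bp downstream of that start and reached at least 579 bp upstream of it. None reached the other start, although the pooled peak covered 226 bases of its window. The pooled peak covered all 300 bases of the printed window. The peak also lay within 1 kb of Rnf31, the gene of a linear ubiquitin ligase subunit, and in the pooled list Rnf31 was the gene nearest to its centre.

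Psme3ip1 (chr8:94574940-94601962) encodes the PSME3-interacting protein. Its PSME3 peak had a fold enrichment of 2.97 in the pooled list (chr8:94601680-94602415), 4.00 in replicate 2 and 2.95 in replicate 3, the 55.6th, 41.6th and 1.21st percentiles of these lists. It was above Psme2 in replicate 2. Replicate 1 listed none. The pooled peak covered 297 of the 300 bases printed for it, and none lay over the window of its other listed start inside the gene. Rspry1 and LOC115486880 lay within 1 kb of it, both nearer to the centre of the pooled peak than Psme3ip1, so a peak at this site cannot be given to 1 gene.

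At Psme3 (chr11:101316213-101323537), the gene of the protein under study, a PSME3 peak was listed in replicate 3 alone. It ran from 396 to 88 bp upstream of the start (chr11:101315817-101316125), had a fold enrichment of 3.86 and a q of 0.0104, and covered 163 bases of the printed window. The pooled list and replicates 1 and 2 had no peak within 1 kb of the gene. Psme3 was the gene nearest to the peak.

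The other activator genes and the inhibitor gene had no PSME3 peak in any list. These were Psme1 (chr14:55578494-55581527), which encodes the PA28 alpha chain, Psme4 (chr11:30771775-30881150), and Psmf1 (chr2:151716062-151744199), whose product PI31 binds the 20S core. The same was true of the immunoproteasome genes Psmb8 (chr17:34198195-34201454), Psmb9 (chr17:34182030-34187330) and Psmb10 (chr8:105935728-105938392).

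Among 19S genes, Psmd13 held the strongest pooled peak. It encodes a lid subunit, and its peak (chr7:140881766-140882391) had a fold enrichment of 3.46 in the pooled list and 3.74 in replicate 3, with none in replicates 1 and 2. The peak lay 3 to 628 bp upstream of the start, outside the gene, and Sirt3 was the nearest gene. At Psmd11, another lid subunit gene, the pooled peak (chr11:80428340-80428652) had a fold enrichment of 2.67 and replicate 3 one of 3.87, with none in replicates 1 and 2. The q was 0.0517 in the pooled list and 0.00814 in replicate 3, at the 14.5th and 69.4th percentiles of these lists. Both peaks covered the same 288 bases of the printed window and had no other protein-coding gene within 1 kb.

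After Psme2 and Psmd13, the 3 next members by pooled fold enrichment had no peak in any replicate list. Psmg4, the gene of a 20S assembly chaperone, held a pooled peak of 3.46 (chr13:34162974-34163212, q = 3.2e-05) that began 10 bp downstream of the start. Psmc6, the gene of a 19S ATPase, held one of 3.05 (chr14:45329540-45330027) across its start, from 284 bp upstream to 203 bp downstream. Psmd8, a lid subunit gene, held one of 3.03 (chr7:29180277-29180730), with Catsperg1 also within 1 kb. The other 4 pooled peaks, at Psma6, Psmc3, Psmd3 and Psmd4, had fold enrichments from 2.62 to 2.79.

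The 5 members seen in replicate 3 alone had peaks of 3.01 to 3.86 in fold enrichment, from the 1.79th (Adrm1) to the 68.9th percentile (Psme3) of that list. The q was 0.0941 at Adrm1 and 0.0772 at Psmg2, against 0.0104 to 0.0288 at Psme3, Psma3 and Psma7. Besides Psme3, Adrm1, the gene of a ubiquitin receptor of the 19S, was nearest to its own peak, which spanned the start. Those at Psma7 and Psmg2 were nearer to Ss18l1 and Cep76. The one counted for Psma3 was centred 6027.5 bp upstream of the listed start, beside a tRNA gene, within 1 kb of the gene span as the table gives it.

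In size the member peaks spanned most of the range of the pooled PSME3 list. Their median fold enrichment was 2.97 against 2.92 for all its peaks, and their percentiles ran from 10.3 to 92.3 with a median of 55.6, which was 31.2 when a peak counted only for its nearest gene (7 members) and 43.4 with no distance allowed beyond the gene span (10 members). Their median width was 454 bp against 431 bp. All 11 overlapped a pooled H3K4me3 peak, as did 93.6% of all pooled PSME3 peaks, and the lower bound of the exact interval for 11 of 11 is 71.5%. Of the 11, 4 lay within 1 kb of another protein-coding gene, a count for which no share over all pooled PSME3 peaks was taken.

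**Figure D2:**
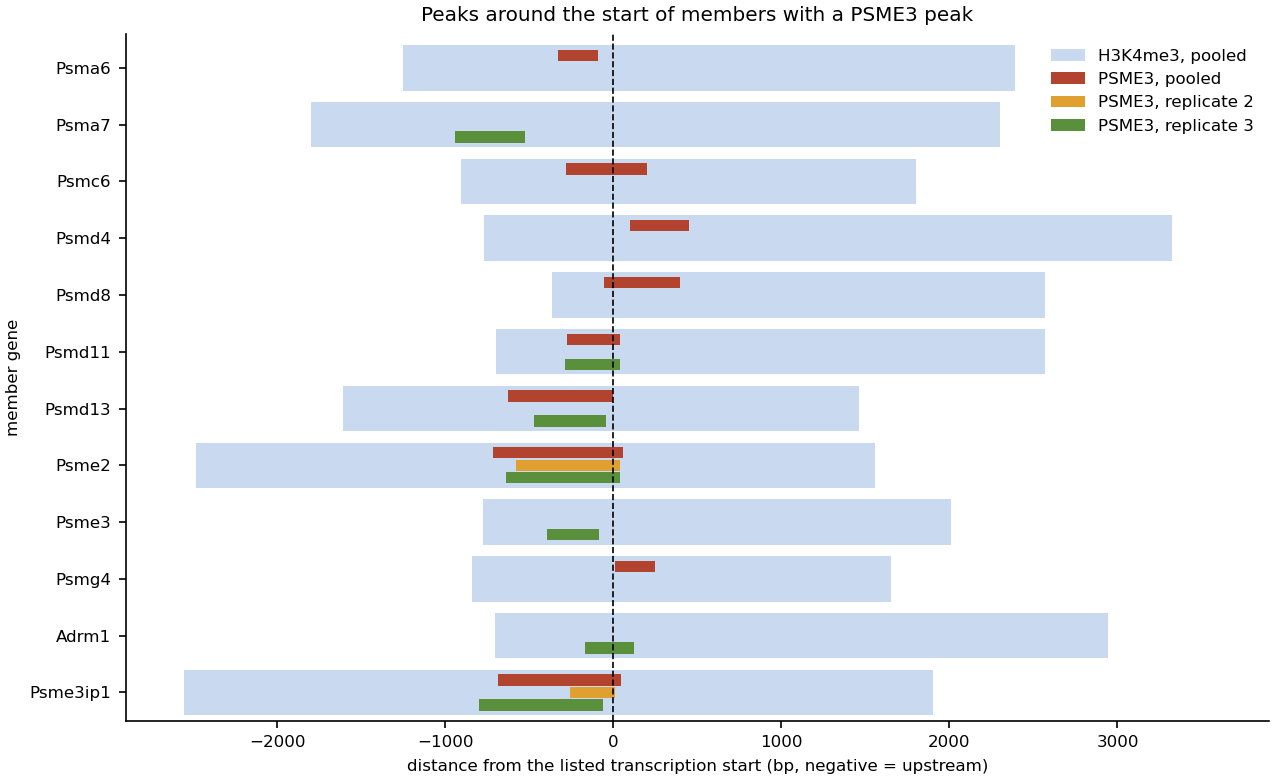
Position of PSME3 peaks (narrow bars; pooled list, replicate 2 and replicate 3) and of the strongest pooled H3K4me3 peak (wide pale bars) around the listed transcription start, for 12 members with a PSME3 peak in any list. Distances are in bp along the strand of the gene. Psmc3, Psmd3 and Psmg2 have no listed start and Psma3 is not drawn. The PSME3 peaks of Psme2, Psme3ip1, Psmd13, Psmd11, Psma6, Psma7 and Psme3 lie mainly upstream of the start.

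On day 2 no PSME3 list held a peak at any of the 49 members. In each of the 4 lists the share was 0 of 49, with an upper bound of 7.25%. Few genes held one at all, 0.950% of protein-coding genes in frozen native, 0.402% in frozen crosslinked, 0.0868% in fresh native and 0.0776% in fresh crosslinked cells. Against so low a background the zeros show nothing particular to proteasome genes. With 1 library per preparation there was no replicate check. The 23 other genes of the pathway also had 0 PSME3 peaks on day 2.

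H3K4me3 was present at the proteasome genes without exception in cycling cells. All 49 members held a peak in the pooled list, where 60.9% of protein-coding genes did. They did so in each replicate, against 58.8%, 63.6% and 59.1% of protein-coding genes in replicates 1, 2 and 3. In at least 2 replicates the background was 59.3% and in all 3 it was 57.6%. The exact interval for 49 of 49 starts at 92.7%. It covers counting error alone for a chosen list of genes, and no test was made.

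On day 2 the mark was kept. It was at 49 of 49 members in frozen native (background 56.9%), frozen crosslinked (57.6%) and fresh crosslinked cells (57.5%), and at 48 of 49 in fresh native cells (54.5%). In all 4 lists together 48 members held it, against 53.5% of protein-coding genes. The exception was Psmb8, which encodes the immunoproteasome subunit that takes the place of PSMB5. All members but Psmb8 thus held H3K4me3 in every day 2 preparation, while PSME3 was listed at none of them.

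Pooled H3K4me3 peaks at members were stronger and wider than the usual peak of that list. Median fold enrichment was 15.9 (range 3.47 to 24.8) against 4.52 over all 23663 peaks, and the median percentile of the members' peaks was 83.3. The median width was 2934 bp, against 1588 bp. The strongest peaks of all 13346 protein-coding genes with H3K4me3 had a median fold enrichment of 14.2 and a median width of 2878 bp, close to the members. With all peaks of a gene summed, the median width was 3038 bp for members and 3233 bp for these genes. The lowest was at Psmb8, followed by Psmb5 with 9.98, Psme1 with 10.2 and Psmb9 with 10.99. The highest were at Psme3ip1 with 24.8, Psmg2 with 22.8, Psme2 with 22.5 and Psmb10 with 22.1.

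The mark sat on the start and ran mainly into the gene. The strongest pooled peak covered the listed start in 41 of 42 members, Psma3 being the exception, and the strongest frozen native day 2 peak did so in 42 of 42. The median pooled peak ran from 860.5 bp upstream to 1882.5 bp downstream, and the frozen native day 2 peak from 647.0 to 1398.0 bp. Over all protein-coding genes whose strongest peak covered a listed start, the medians were 1009.5 and 1816.5 bp in the pooled list. On day 2 they were 756.0 and 1440.0 bp. The pooled list joins 3 replicates and the day 2 list is 1 library, and the part of this was not tested. The strongest peak was longer downstream in 33 of 42 members in the pooled list and in 32 on day 2. The strongest peak covered a listed start in 85.6% of all marked protein-coding genes with one in the pooled list and in 87.3% on day 2, and was longer downstream in 78.8% and 79.3%. For 18 of the 49 members, or 36.7%, the strongest pooled peak also lay within 1 kb of another protein-coding gene, as for 30.7% of all marked protein-coding genes. No 2 members shared a peak.

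Members with a pooled PSME3 peak had somewhat stronger H3K4me3. Median pooled H3K4me3 fold enrichment was 17.95 for the 11 with PSME3 and 15.2 for the 38 without, and median summed widths were 3282 and 2790 bp. The ranges overlapped, from 13.1 to 24.8 in the former and from 3.47 to 22.8 in the latter. Over all protein-coding genes with H3K4me3 these medians were 16.0 and 4109 bp with PSME3 and 12.9 and 2765 bp without. This was a description, and no test was made over the members.

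To set lists of different length side by side, the strongest H3K4me3 peak of each gene was ranked by fold enrichment among the 11642 protein-coding genes that held H3K4me3 in all 7 single-library lists, and given as a percentile. Psmb8 was not ranked because it lacked a peak in fresh native cells. The median of the other 48 members was 56.0, 65.6 and 65.1 in cycling replicates 1, 2 and 3. On day 2 it was 60.0 in frozen native, 57.7 in frozen crosslinked, 67.0 in fresh native and 58.9 in fresh crosslinked cells, the order in which day 2 values are given from here on. The middle of all ranked genes is 50, so the members stood slightly above the typical marked gene. They spread across nearly the whole scale, from 3.44 (Psmb5, replicate 1) to 100 (Psme3ip1, replicate 2).

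**Figure D3:**
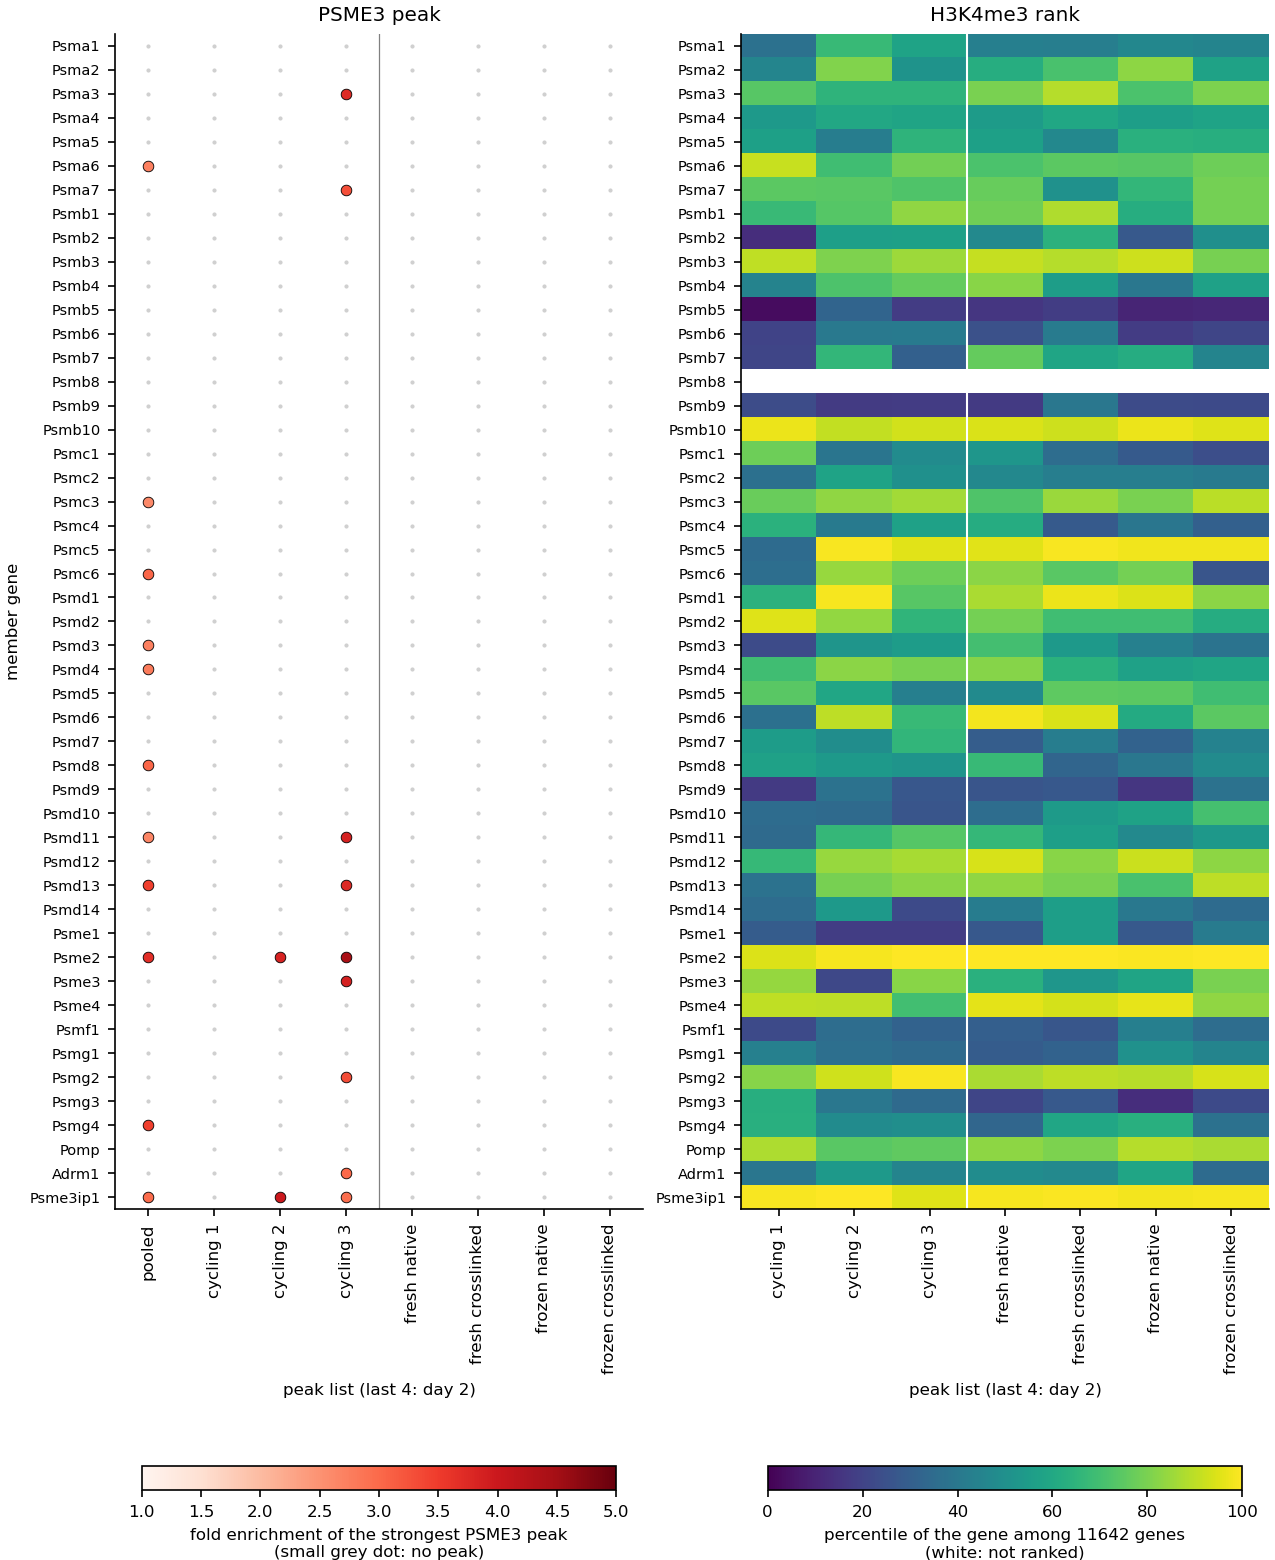
Left, fold enrichment of the strongest PSME3 peak within 1 kb of each of the 49 members (rows) in the 8 PSME3 lists (columns), with small grey dots for no peak. Right, percentile of the strongest H3K4me3 peak of each member among 11642 protein-coding genes in the 7 single-library lists, with Psmb8 not ranked. Psme2 and Psme3ip1 are the only rows with PSME3 in 2 replicates and stay near 100 in every H3K4me3 list.

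Psme2 and Psme3ip1, the members with PSME3 in 2 replicates, had the highest mean H3K4me3 ranks of the members in cycling cells, though in each replicate another member stood above 1 of them. Psme3ip1 stood at 99.0, 100 and 95.04 in the cycling replicates and at 98.4, 98.8, 98.8 and 99.6 on day 2. Psme2 stood at 94.6, 98.5 and 99.8 in cycling cells and at 99.3, 100, 99.8 and 99.9 on day 2. Both sites lie beside other genes, as given above, and whose promoter carries the mark cannot be told apart there.

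The activators differed from one another. Psme1, whose product pairs with that of Psme2 in PA28, stood at 29.3, 18.1 and 18.3 in cycling cells and at 27.9, 41.6, 27.6 and 56.0 on day 2. It was below Psme2 in every list. Psme4 stood at 90.4, 90.1 and 69.9 in cycling cells and at 96.3, 83.4, 95.8 and 93.6 on day 2. Psme3 was the least stable of them, at 84.3, 21.8 and 82.1 in cycling cells and at 58.4, 79.7, 63.4 and 52.5 on day 2, so that its day 2 values all fell within the cycling range. The inhibitor gene Psmf1 stood at 22.3, 35.9 and 31.4 in cycling cells and at 43.3, 35.8, 30.3 and 26.6 on day 2.

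Of the standard 20S core genes, Psmb5 had the lowest cycling mean. Psmb5, the gene of the chymotrypsin-like subunit, stood at 3.44, 32.0 and 17.7 in cycling cells and from 10.3 to 18.1 on day 2. Psmb6, the gene of the caspase-like subunit, had a cycling mean of 33.9 ± 11.9 (SD, n = 3), and Psmb7, the gene of the trypsin-like subunit, one of 39.4 ± 23.7. The noncatalytic Psmb2 had 42.0 ± 25.1, and these 3 genes do not differ beyond their spread. On day 2 Psmb7 stood at 61.9, 45.2, 76.5 and 58.7. Of the noncatalytic beta genes Psmb3 was highest at 85.4 ± 5.0, and the alpha genes lay between 54.2 (Psma1) and 79.8 (Psma6).

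The immunoproteasome genes fell at both ends. Psmb10, whose product replaces PSMB7, stood at 97.1, 90.7 and 93.1 in cycling cells and at 97.2, 95.1, 94.2 and 92.3 on day 2. Psmb9, whose product replaces PSMB6, stood at 23.4, 17.5 and 17.8 in cycling cells and at 23.0, 22.3, 16.9 and 39.7 on day 2. Psmb8 had fold enrichments of 4.72, 3.24 and 4.29 in the cycling lists, at the 27.5th, 65.7th and 33.2nd percentile of all their peaks. On day 2 it had 3.83 in frozen native, 3.38 in frozen crosslinked and 3.64 in fresh crosslinked cells. The strongest pooled peaks of Psmb8 and Psmb9 both lay within 1 kb of Tap1, the peptide transporter gene between them, and that of Psmb10 within 1 kb of Lcat.

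The 4 members that followed Psme2 in pooled PSME3 fold enrichment all stood above Psme3ip1 in it. They did not share the high H3K4me3 ranks of Psme2 and Psme3ip1. Psmd13 stood at 37.8, 79.4 and 82.5 in cycling cells and at 71.3, 90.1, 83.3 and 79.8 on day 2. Psmg4 stood at 63.1, 48.3 and 49.3, then at 63.1, 37.4, 33.2 and 59.1. Psmc6 stood at 36.2, 84.4 and 77.9, then at 79.2, 26.2, 82.6 and 74.3. At Psmd8 the values were 57.3, 54.0 and 51.6, then 39.6, 48.2, 67.4 and 32.8. In all 4 genes the cycling and day 2 values overlapped.

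Among the 19S genes, median cycling ranks were 60.6 over 6 ATPase genes and 61.5 over 12 non-ATPase genes, and 54.5 and 60.7 on day 2. Psmc5, an ATPase gene, showed the widest disagreement between replicates of any member, at 35.1 in replicate 1 against 99.2 and 95.4 in replicates 2 and 3, and stood from 95.3 to 98.9 on day 2. The 3 genes of 19S assembly chaperones had cycling means of 59.0 (Psmd5), 32.1 (Psmd10) and 27.3 (Psmd9). Of the 20S chaperone genes Psmg2 was highest at 91.1 ± 8.7, Pomp stood at 79.2 ± 7.4 and Psmg1 was lowest at 38.2 ± 4.7.

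Between cycling cells and day 2 few members stood outside the range of the cycling lists in all 4 day 2 lists. Psmd10, the gene of gankyrin, was higher in all 4 day 2 lists (57.8, 70.5, 35.5 and 54.5) than in all 3 cycling lists (35.4, 34.5 and 26.4), though only just so in fresh native cells. This was 1 of 48 members, against 10.5% of all ranked genes. Psmd7, a lid subunit gene, and Psmg3, a 20S chaperone gene, were lower in all 4 day 2 lists, 2 of 48 members against 10.8%. Psmg3 stood at 62.5, 39.6 and 34.5 in cycling cells and at 13.2, 22.4, 21.1 and 28.1 on day 2. Psmd7 stood at 55.2, 48.8 and 65.8 in cycling cells and at 31.5, 44.3, 29.5 and 42.3 on day 2. Both shares lay below the background. Leaving out cycling replicate 1, 2 or 3 gave 4, 4 and 2 members higher, against 16.2, 15.3 and 14.9% of all ranked genes, and 5, 4 and 3 lower, against 16.8, 15.7 and 15.2%. By summed peak width instead of fold enrichment 4 members were higher, against 13.9%, and 0 lower, against 8.62%. These counts were not tests, and each day 2 preparation was 1 library.

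The frozen native day 2 list, prepared as the cycling cells were, lay outside the range of the 3 cycling replicates at 22 of 48 members, or 45.8%, against 53.1% of all ranked genes. It stood above all 3 cycling replicates at 11 of 48 members, against 26.8% of all ranked genes, and below all 3 at 11 of 48, against 26.3%. The mean over day 2 lists minus the mean over cycling replicates ran from -24.4 (Psmg3) to 22.5 (Psmd10), with a median of 0.991 percentile points. It was within 10 points for 34 of 48 members, or 70.8%, against 58.5% of all ranked genes, while the cycling SD of a member had a median of 11.1 points (n = 3), against 9.34 for all ranked genes. The order of the members was alike between conditions. Spearman's rho over the 48 members was 0.506 to 0.798 between cycling replicates, 0.508 to 0.890 between a cycling and a day 2 list and 0.798 to 0.857 between day 2 lists. Over the 11642 genes it was 0.746 to 0.886, 0.667 to 0.814 and 0.860 to 0.928. These are correlations across genes, which are not independent replicates.

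**Figure D4:**
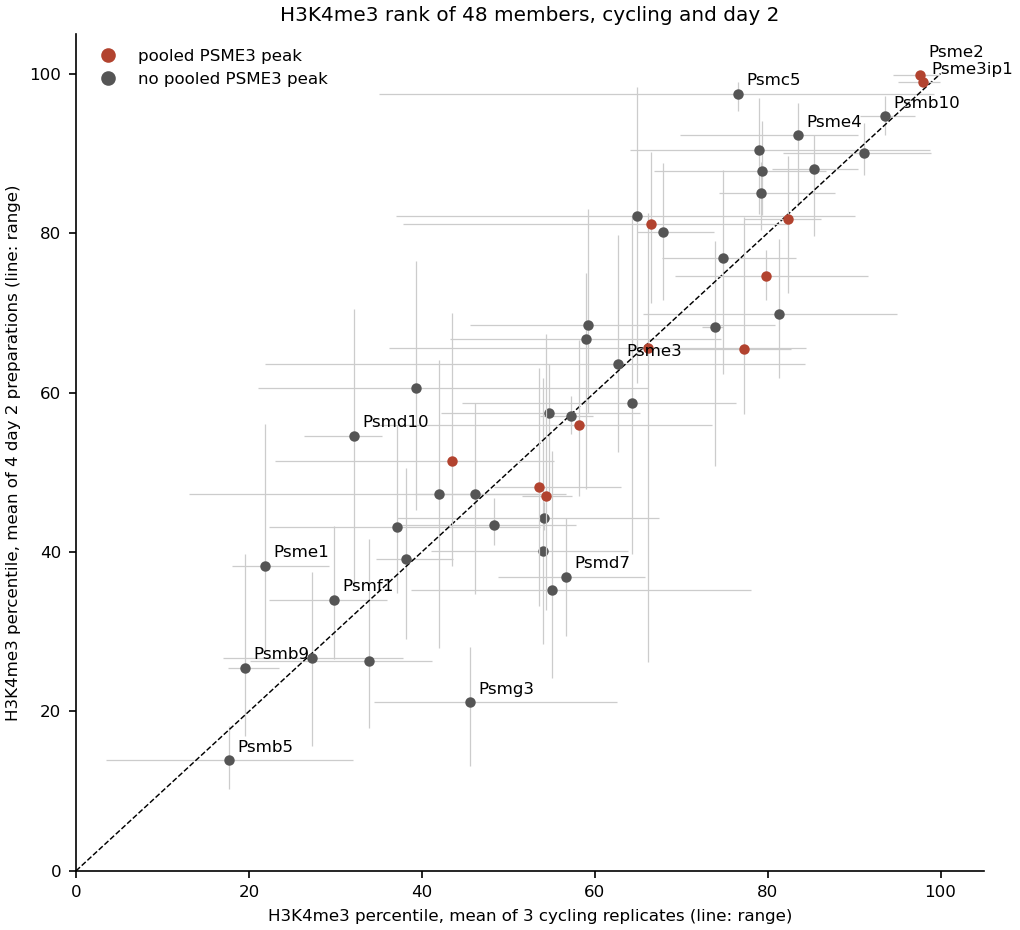
H3K4me3 percentile of 48 members, as the mean of 3 cycling replicates (horizontal axis) and of 4 day 2 preparations (vertical axis), with lines for the range. The dashed line marks equal rank. Psmd10 lies above it, Psmg3 and Psmd7 lie below it, and Psme2 and Psme3ip1 are at the top in both.

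Promoter letters had not been used to choose the members. The ETS letters CCGGAAG, on either strand, were in 18 of 46 member windows, or 39.1%, against 11.6% of the 21263 windows of protein-coding genes. Among windows under a pooled H3K4me3 peak the shares were 40.9% of 44 member windows and 18.8% of 11517. The 17 members with the letters included Psme3, Psme3ip1, Psme4, Psma6, Psmc6, Psmd4, Psmd11, Psmd13, Adrm1 and Pomp, but not Psme2, whose window held 2 GC boxes and none of the other motifs. They were in 6 of the 9 members with a pooled PSME3 peak and a listed start and in 11 of the 33 without a pooled peak. Over all protein-coding genes with a listed start the letters were in 18.05% with and 11.5% without a pooled PSME3 peak, and over those with H3K4me3 in 18.1% and 19.7%. A match of letters is a description and does not show a bound factor, and no test was made.

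Of the other motifs, the antioxidant response element core, the site of NFE2L1 and NFE2L2, was in 15.2% of member windows and 13.0% of all. The members were Adrm1, Psmb5, Psmb6, Psmc6, Psmd9, Psmd12 and Psme4. CCAAT was in 32.6% and 38.2%, the E box in 10.9% and 7.84%, the GC box in 58.7% and 46.2%, and the TATA box in 10.9% and 12.6%. Among windows under H3K4me3 the TATA box was in 11.4% of member windows and 6.32% of all, the GC box in 61.4% and 68.4%, CCAAT in 31.8% and 38.1%, the E box in 11.4% and 10.3%, and the antioxidant response element core in 15.9% and 14.4%.

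**Figure D5:**
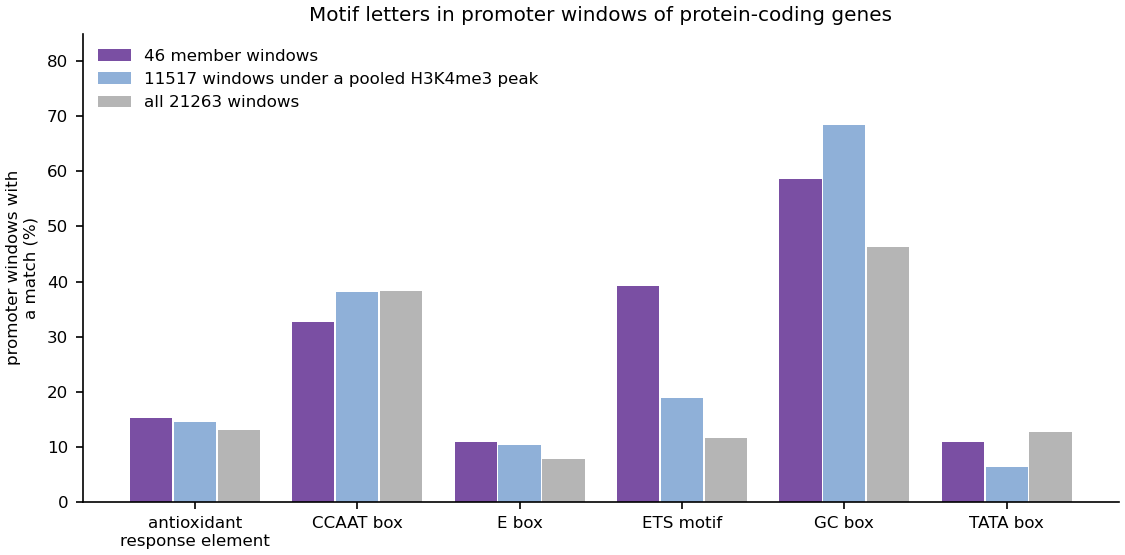
Percent of promoter windows with each of the 6 motifs on either strand, for the 46 windows of members, the 11517 windows of protein-coding genes under a pooled H3K4me3 peak and all 21263 windows. The ETS motif stands at 39.1%, 18.8% and 11.6%, and the TATA box at 10.9%, 6.32% and 12.6%.

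The 23 other genes of the pathway, which encode proteasome-bound factors, regulators of proteasome genes, ubiquitin shuttles and tissue-restricted subunits, were read in the same way. H3K4me3 was at 21 of 23 in the pooled list and in each single-library list. The exceptions were Psma8, the testis subunit gene, and Psmb11, that of the thymus. Pooled PSME3 peaks were at 9 of the 23, namely Uchl5, Ube3c, Txnl1, Nfe2l1, Nfe2l2, Vcp, Ufd1, Ubqln4 and Zfand5, with fold enrichments from 2.69 (Ube3c) to 3.38 (Ufd1). This was 39.1% of the 23, and 42.9% of the 21 with H3K4me3, beside 21.9% and 35.6% of all and of marked protein-coding genes. None of the 23 held a PSME3 peak in 2 replicates. Nfe2l1 and Nfe2l2, which encode the factors of the antioxidant response element, had 3.02 and 2.92, and each was in 1 replicate list.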

How the data were processed

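Trim Galore, Bowtie2 and MACS2 were the authors' tools for trimming, alignment to mm10 (per the labels) and peak calling, which was done per library and once on the 3 cycling replicates in aggregate. Versions, options and the control library are not given in the sources used here. The deposited lists give each peak a fold enrichment, a ratio to the MACS2 background, and q-values as -log10, with every q below 0.1. They hold no read numbers. Of 21 libraries 14 were used, as 16 lists with the 2 pooled ones, and the 7 IgG libraries were not analysed here.

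Peaks were assigned in Python 3.11.15 (pandas 2.3.3, scipy 1.17.1, numpy 2.4.6) to genes of a GRCm38.p6 RefSeq table. A peak could count for several genes, and the strongest peak stood for a gene and list. The assignment was tested on simulated peaks against a direct search, with 300 of 300 answers the same. Backgrounds are all 21900 protein-coding genes with a position. The members, lists and rules were chosen with earlier results of these data known, so no list was tested, and the H3K4me3 ranks were chosen after the data were seen. Values per list were given for members with PSME3 in at least 2 replicates, the 5 highest pooled PSME3 peaks, the activator, inhibitor, Psme3ip1 and immunoproteasome genes. Psmd11, members seen in replicate 3 alone, members at the ends of a scale and those that changed rank were named after their values were seen.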

Additional observations from a re-analysis of the deposited data

How the results depend on the processing

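The number of members with a pooled PSME3 peak fell from 11 to 6 at a q of at most 0.01, to 7 when a peak counted only for its nearest gene and to 2 when it had to be in at least 2 replicate lists. All protein-coding genes with such a peak fell alongside, from 21.9% to 12.8, 18.8 and 3.96%, and marked ones from 35.6% to 20.9, 30.6 and 6.50%. Counting pooled peaks also listed in either remaining replicate when 1 was left out, it was 2 to 4, and lowest without replicate 3 (12.5, 12.8 and 5.87% of all protein-coding genes without replicates 1, 2 and 3). Of marked genes the shares were 20.5, 20.9 and 9.59%. The count with PSME3 in at least 2 replicates fell from 2 to 0 at a q of at most 0.01 and to 1 by nearest gene (1.93 and 3.26% of all protein-coding genes, from 4.27%), and was 0 to 2 with a replicate left out, 0 without replicate 2 or replicate 3 (2.78 and 1.32%). The median PSME3 percentile fell from 55.6 to 31.2 by nearest gene and was 43.4 with no distance allowed beyond the gene span. The PSME3 background fell from 21.9 to 11.8% over all genes of the table, noncoding ones included, and the share of marked genes with PSME3 from 35.6 to 28.0% over promoter windows. Alternatives for the H3K4me3 ranks were chosen after seeing the data. Members higher on day 2 numbered 1, then 2 to 4 with a cycling replicate left out and 4 by summed width. Members lower on day 2 numbered 2, then 3 to 5 with a replicate left out and 0 by summed width. The causes were not tested. Of the 11 members, 10 kept their pooled PSME3 peak with no distance allowed beyond the gene span, 11 at 3 kb and by peak centre, and 10, all but Psmd11, at a q of at most 0.05. In this order 19.3, 23.4, 21.7 and 20.0% of all protein-coding genes held such a peak, and 31.3, 37.7, 35.3 and 32.5% of marked ones. Over promoter windows 8 of the 9 with a listed start kept it. The day 2 PSME3 counts stayed at 0 under all settings run. The H3K4me3 counts stayed at 48 or 49 except over promoter windows and by nearest gene. Over promoter windows, which only 42 members have, they were 42 in cycling cells and 40 in all 4 day 2 preparations. By nearest gene they were 43 in the pooled list, 42 in at least 2 replicates and 41 in all 4 day 2 preparations. Shares of all genes under these settings are not given. Depth is unknown and limits every count of peaks. No paired analysis was possible because the results are counts, shares and medians that come from no test.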
